A study of Homo sapiens with 4 samples.

Results

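The Krüppel-like factor genes KLF2, KLF3, KLF4, KLF5, KLF6, KLF9, KLF10, KLF11, KLF13 and KLF15 were followed in cells with and without CRISPR-Cas9 targeting of TXNDC9, a gene for a thioredoxin-domain protein. The 10 genes were taken by symbol, and each symbol occurred once among the 57979 genes with values. Polyadenylated RNA was sequenced in 2 wild-type libraries and 2 TXNDC9 knockout libraries, and both groups are labelled as HepG2, a human liver cancer cell line. The study's methods describe lentiviral delivery of Cas9 with guide RNAs against TXNDC9. Sorting of infected cells, and the vector alone as control, are described in the legend of a western blot. The study does not say whether the wild-type libraries came from such control cells. It also does not say whether a single clone or which guide gave the knockout libraries. Nothing in the labels says that the 2 libraries of a group came from separate cultures, so the p-values measure the spread between these libraries, which may be technical. Values are FPKM, fragments scaled to transcript length and to the size of the library, so that levels can be compared between genes per length. How library size was normalized is not given in the sources used here. The depth of the libraries is unknown.

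Krüppel-like factors are zinc-finger transcription factors that bind GC boxes and CACCC boxes in promoters, where they meet the related SP proteins. They fall into a group that mainly activates transcription and recruits acetyltransferases (KLF2, KLF4, KLF5 and KLF6 here), a group that represses through the corepressor CtBP (KLF3) and a group that recruits the SIN3 corepressor (KLF9, KLF10, KLF11 and KLF13). KLF15 stands apart from these groups and is known in liver for its part in gluconeogenesis and amino acid breakdown. Several of the genes answer quickly to outside signals, KLF9 and KLF15 to glucocorticoids and KLF10 and KLF11 to TGF-β.

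The labelled cell type was checked first, because it bears on every value. Of 10 hepatocyte markers (ALB, AFP, APOA1, APOB, TTR, SERPINA1, HNF4A, FOXA2, TF and AHSG), all 10 were under 0.5 FPKM in all 4 libraries, and APOA1, FOXA2 and AHSG were listed at 0 in all 4. Summed over the list, the wild-type libraries had 0.446 and 0.641 FPKM and the knockout libraries 0.0479 and 0.174 FPKM, which goes against the HepG2 label. Of 3 endothelial markers, 1 had a mean above 1 FPKM (CDH5, called higher in the knockout libraries), and the summed level went from 0.803 and 1.22 FPKM to 4.41 and 3.42 FPKM. VWF and PECAM1 stayed under 0.5 FPKM in all 4 libraries. The sum of 3 leukocyte markers lay between 0.264 and 0.575 FPKM, with CD3E listed at 0 throughout. Of 3 mesenchymal markers, COL1A2 was listed at 0 throughout, and the sum, nearly all of it COL3A1, was 20.8 and 25.2 FPKM without the knockout and 14.3 and 14.1 FPKM with it. The part of cell type in the results that follow was not tested, and fewer cells of a type cannot be told apart from less RNA per cell.

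The wild-type libraries had 35.1 and 37.3 FPKM of TXNDC9 itself, and the knockout libraries 21.9 and 27.6 FPKM. Both knockout values were the lower ones, and the transcript was still present at 24.7 ± 4.04 FPKM (SD, n = 2) in the knockout group. The log2 fold change was −0.55 ± 0.14 (SE, limma on log2(FPKM + 0.1), Benjamini-Hochberg adjusted p = 0.0145), so TXNDC9 was not called. A call throughout means at least a 2-fold change together with an adjusted p below 0.01. With each library rescaled to the same sum (TPM) it became 0.12, a rescaling that moves all genes alike. Relative to the median tested gene it was −0.47 on the FPKM scale and −0.46 on the TPM scale, and with transcript length and GC content corrected it was −0.49. TXNDC9 mRNA was thus lower relative to the median gene under each of these treatments, without reaching a 2-fold change.

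The scale of the values mattered for every gene here. Summed FPKM was 805816 and 971102 for wild type but 535973 and 568279 for the knockout, and with TPM the median log2 fold change over the 13246 tested genes was 0.59 in place of −0.09. Fold changes below are on the deposited FPKM scale, and for the members and their tested relatives that were called they are also given relative to the median gene. The other called genes named below kept their direction relative to the median gene on both scales. Longer and less GC-rich transcripts had higher fold changes throughout (Spearman correlation of the log2 fold change with canonical transcript length 0.495 and with GC content −0.462 across 13112 genes, which are not independent replicates). For the tested members and the called genes of the lists below, values corrected for both are given as well.

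The promoters of 3 activating members are shown, KLF4 with no detectable difference on the FPKM scale, KLF5 as the most abundant member in both groups and KLF6 with a call. With length and GC corrected, the log2 fold changes of KLF4, KLF5 and KLF6 were 0.27, 0.42 and 0.68, and none was called. Each line gives the 120 bases just before the start site on the gene's strand, from RefSeq (GRCh38.p14), with capitals marking the GC box GGGCGG, the CACCC box CACCC and the E-box CACGTG on either strand. The KLF4 stretch is chr9:107489770-107489889 (minus strand), the KLF5 stretch chr13:73058885-73059004 (plus strand) and the KLF6 stretch chr10:3785210-3785329 (minus strand).
KLF4: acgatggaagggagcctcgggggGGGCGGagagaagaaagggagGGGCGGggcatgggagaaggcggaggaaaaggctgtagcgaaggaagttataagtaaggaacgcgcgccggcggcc
KLF5: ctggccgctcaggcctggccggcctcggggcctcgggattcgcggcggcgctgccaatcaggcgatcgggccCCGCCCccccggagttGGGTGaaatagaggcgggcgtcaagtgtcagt
KLF6: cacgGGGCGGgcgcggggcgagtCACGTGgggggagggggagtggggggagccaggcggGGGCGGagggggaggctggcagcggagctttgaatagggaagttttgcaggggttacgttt
KLF4 and KLF6 held 2 GC boxes each in these bases, and KLF5 held 1 GC box beside 1 CACCC box, the element the family itself reads. KLF6 was the only one of the 3 with an E-box here, the element bound by MYC and by CLOCK with BMAL1.

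In a longer window, which took in 250 bases upstream of the start and the first 50 transcribed bases, 8 of the 10 genes had a sequence. Motifs were counted on both strands, and matches to different motifs could share bases. GC boxes were found in 7 of these 8 promoters, with 6 matches each at KLF2 and KLF15, 4 at KLF4, 3 at KLF13 and 2 each at KLF5, KLF6 and KLF11, while 45% of all 35116 promoter windows hold at least 1. KLF9 had no match to any motif searched. CACCC boxes were found at KLF5 (2 matches) and KLF13 (1 match), against 59.9% of all windows. The E-box was found at KLF4, KLF6, KLF11 and KLF15, against 7.26% of all windows. TATAAA, the TATA box core, was in none of the 8 windows and in 11.5% of all windows. These matches describe letters only, and the window of KLF11 lay 279 bases from the start of its canonical transcript.

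Across the 10 genes, 9 had a mean above 1 FPKM and were tested, and KLF15 fell below that limit. In the knockout libraries 2 of the 9 were called higher, KLF3 and KLF6, beside 14.2% of all tested genes. None was called lower, beside 15.3% of all tested genes. At an unadjusted p under 0.05 in limma, 6 of the 9 were higher and 0 were lower, beside 33.0% and 38.3% of all tested genes. In 7 of the 9, both knockout libraries were above both wild-type libraries, which held for 40.1% of all tested genes, while the reverse held for 45.9% of all tested genes and for none of the 9. An adjusted p under 0.01 with a higher level of any size was found for 4 of the 9 and for 23.7% of all tested genes. The median log2 fold change of the 9 was 0.65, beside −0.09 over all tested genes (1.33 beside 0.59 on the TPM scale). After correction for transcript length and GC content it was 0.42 beside −0.05, and 0 of the 9 then reached a 2-fold change. The median canonical transcript of the 9 was 4035 nt long with 46.2% GC, beside 2866.5 nt and 48.5% over all tested genes.

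**Figure D1:**
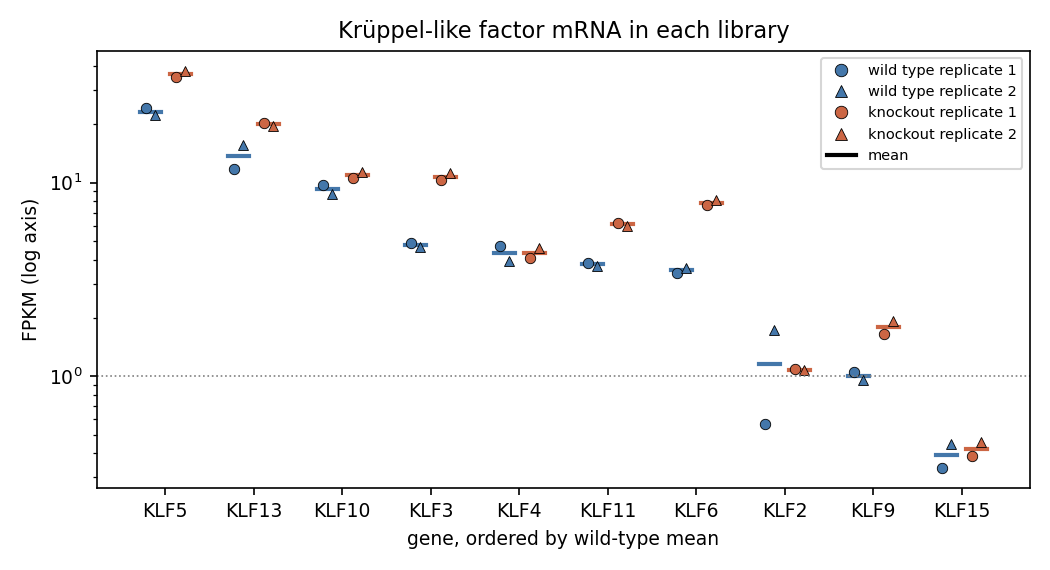
FPKM (log axis) of each of the 10 Krüppel-like factor genes, ordered by the wild-type mean, in the 2 wild-type and 2 knockout libraries; points are libraries, bars are group means and the dotted line marks the mean of 1 FPKM needed for a test. Both knockout points lie above both wild-type points for KLF3, KLF5, KLF6, KLF9, KLF10, KLF11 and KLF13, while the points of KLF2, KLF4 and KLF15 overlap.

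KLF3, the CtBP-binding repressor, rose in the knockout libraries. Its wild-type values were 4.85 and 4.66 FPKM and its knockout values 10.3 and 11.2 FPKM. The groups lay far apart compared with the spread within them, with means of 4.76 ± 0.134 and 10.7 ± 0.642 FPKM (SD, n = 2 each), a ratio of 2.25. Its log2 fold change was 1.15 ± 0.11 (SE, 95% confidence interval 0.87 to 1.44, limma with Benjamini-Hochberg adjusted p = 0.000725), 1.24 above the median gene on the FPKM scale and 1.25 above it on the TPM scale. Even so, 12.6% of all tested genes had a higher log2 fold change. With length and GC corrected, the log2 fold change was 0.42 (limma with Benjamini-Hochberg adjusted p = 0.0192) and the call was lost. The gene (ENSG00000109787) lies on chromosome 4 of hg38 from 38664197 to 38701517 and has a long transcript of 5594 nt with 41.1% GC. It overlaps the antisense gene KLF3-AS1, and the use of strand in counting is not given in the sources used here, so reads of the pair cannot be told apart.

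KLF6, an activator also known as a tumour suppressor, was the other gene called. It went from 3.42 and 3.63 FPKM to 7.62 and 8.1 FPKM, with means of 3.53 ± 0.146 and 7.86 ± 0.34 FPKM (SD, n = 2 each). The lowest knockout value was therefore above the highest wild-type value by a wide margin, and the ratio of the means was 2.23. The log2 fold change was 1.13 ± 0.12 (SE, 95% confidence interval 0.83 to 1.44, limma with Benjamini-Hochberg adjusted p = 0.000875). Relative to the median gene it was 1.22 on the FPKM scale and 1.23 on the TPM scale. The call was lost just under 2-fold with a pseudocount of 1 (0.97) and with libraries centred on their median (0.99), and more clearly with length and GC corrected (0.68, limma with Benjamini-Hochberg adjusted p = 0.00583). KLF6 (ENSG00000067082) lies on chromosome 10 from 3775996 to 3785281 and overlaps no other annotated gene. KLF3 and KLF6 had the most alike profiles of any pair among the 9 tested members, at a distance of 0.103 between mean-centred log2 values over the 4 libraries.

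Without either knockout library, the calls of both KLF3 and KLF6 were lost. Without knockout replicate 1 the log2 fold changes were 1.22 for KLF3 and 1.18 for KLF6 (limma with Benjamini-Hochberg adjusted p = 0.025 and 0.0267), and without knockout replicate 2 they were 1.09 for both (adjusted p = 0.0259 and 0.0282). The sizes hardly moved, and in these fits of 3 libraries 0 of the 13246 genes were called at all, with 3459 and 3294 genes higher at an unadjusted p under 0.05. Without either wild-type library both genes remained called.

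KLF5, which promotes growth in many epithelial cells, was the most abundant member in every library. Wild-type levels were 24.1 and 22.3 FPKM, and knockout levels 35.2 and 37.8 FPKM. Its wild-type mean of 23.2 ± 1.28 FPKM and its knockout mean of 36.5 ± 1.86 FPKM (SD, n = 2 each) were further apart than the spread within either group, and over the 4 libraries its level was above that of 71.8% of all tested genes. The log2 fold change of 0.65 ± 0.10 (SE, 95% confidence interval 0.39 to 0.91) had an adjusted p of 0.00285 by limma with Benjamini-Hochberg adjustment but stayed under 2-fold. It was 0.74 relative to the median gene on either scale, and 0.42 with length and GC corrected. KLF5 (ENSG00000102554, chromosome 13 from 73054976 to 73077541) made up 37.4% and 34.0% of the summed FPKM of the 10 genes in wild-type libraries and 36.1% and 37.1% in knockout libraries, so its share overlapped between the groups while the sum itself went from 64.5 and 65.7 FPKM to 97.5 and 102.0 FPKM. The 3 genes outside the family whose profiles over the 4 libraries were most like that of KLF5 were IRAK2, ZFR and DIEXF, at distances of 0.0111, 0.0117 and 0.0124. ZFR went from 34.3 and 32.0 FPKM to 50.1 and 53.7 FPKM.

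KLF4, known for its part in pluripotency and epithelial differentiation, showed no detectable difference on the FPKM scale. Wild type had 4.71 and 3.94 FPKM and the knockout 4.06 and 4.6 FPKM, so that the groups overlapped completely. The log2 fold change was 0.01 ± 0.16 (SE, 95% confidence interval −0.38 to 0.40, limma with Benjamini-Hochberg adjusted p = 0.977), and it was −0.14 with libraries centred on their median. On the TPM scale it was 0.675 (limma with Benjamini-Hochberg adjusted p = 0.0324), where the median gene was at 0.59. It was 0.09 relative to the median gene on either scale, and 0.27 with length and GC corrected. The interval leaves out a 2-fold change in either direction on the FPKM scale. KLF4 (ENSG00000136826) lies on chromosome 9 from 107484852 to 107490482 and overlaps an annotated gene on the other strand.

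KLF2, which with KLF4 is induced by blood flow in endothelium, was barely above the limit for a test. One wild-type library had 0.567 FPKM and the other 1.73 FPKM, and the knockout libraries had 1.09 and 1.08 FPKM. Both knockout values lay between the wild-type values, and the wild-type SD of 0.826 FPKM was most of the mean of 1.15 FPKM (n = 2). The log2 fold change of 0.10 ± 0.53 (SE, 95% confidence interval −1.20 to 1.40) therefore leaves a 2-fold change in either direction open. It was −0.63 without wild-type replicate 1, 0.83 without wild-type replicate 2 and −0.05 with libraries centred on their median, so no direction can be given. Relative to the median gene it was 0.19 on the FPKM scale and 0.16 on the TPM scale, and with length and GC corrected 0.66 (limma with Benjamini-Hochberg adjusted p = 0.311). KLF2 (ENSG00000127528, chromosome 19 from 16324826 to 16328685) has the most GC-rich transcript of the 10, at 61.2%.

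The SIN3-binding members were higher in both knockout libraries by different amounts, and none was called. KLF11 went from 3.86 and 3.71 FPKM to 6.22 and 6.0 FPKM. Its groups were well separated, with a log2 fold change of 0.67 ± 0.12 (SE, limma with Benjamini-Hochberg adjusted p = 0.00472) that stayed under 2-fold. KLF10, which like KLF11 is an early gene of the TGF-β response, was at 9.76 and 8.71 FPKM against 10.6 and 11.3 FPKM. The gap between its groups was about as large as the spread within them, and the log2 fold change was 0.25 ± 0.11 (SE, 95% confidence interval −0.04 to 0.53, limma with Benjamini-Hochberg adjusted p = 0.103). The interval leaves out a 2-fold change for KLF10 on the FPKM scale. Relative to the median gene, KLF11 was at 0.76 and KLF10 at 0.34 on either scale, and with length and GC corrected they were at 0.36 and 0.08. KLF11 (ENSG00000172059) lies on chromosome 2 from 10042849 to 10054836 and overlaps an annotated gene on the other strand, and KLF10 (ENSG00000155090) lies on chromosome 8 from 102648784 to 102655725.

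KLF13, known in T cells as an activator of CCL5, was the second most abundant member. Its wild-type levels were 11.8 and 15.6 FPKM and its knockout levels 20.4 and 19.6 FPKM, so that the wild-type libraries differed more from each other than the knockout libraries did. The log2 fold change was 0.56 ± 0.15 (SE, limma with Benjamini-Hochberg adjusted p = 0.02), and it was 0.36 without wild-type replicate 1 and 0.76 without wild-type replicate 2. KLF9, a target of glucocorticoid and thyroid hormone, was at 1.05 and 0.956 FPKM against 1.64 and 1.93 FPKM. Its groups were separate at this low level, where the pseudocount of 0.1 lowers the fold change, and the log2 fold change was 0.77 ± 0.26 (SE, limma with Benjamini-Hochberg adjusted p = 0.0405). Relative to the median gene, KLF13 was at 0.65 on either scale and KLF9 at 0.86 on the FPKM and 0.85 on the TPM scale, and with length and GC corrected they were at 0.42 and 0.26. KLF13 (ENSG00000169926) lies on chromosome 15 from 31326835 to 31435665, has the longest transcript of the 10, 6845 nt, and overlaps the gene UBE2CP4 on the same strand. KLF9 (ENSG00000119138) lies on chromosome 9 from 70384604 to 70414657.

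KLF15, the metabolic member, was low in every library, with 0.336 and 0.448 FPKM for wild type and 0.386 and 0.459 FPKM for the knockout. The groups overlapped, the mean of the 4 libraries was under 1 FPKM and no test was made. KLF15 (ENSG00000163884) lies on chromosome 3 from 126342635 to 126357408.

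**Figure D2:**
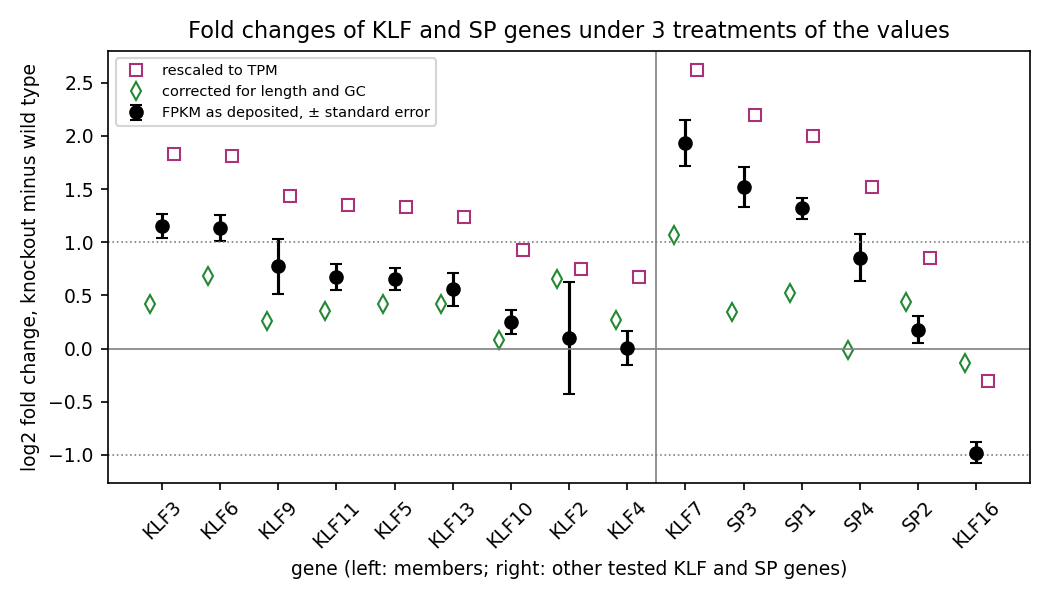
Log2 fold change (knockout minus wild type) of the 9 tested members, left of the line, and of the other tested KLF and SP genes, right of it. Filled circles with bars are the FPKM values as deposited with the standard error, squares the values after rescaling to TPM and diamonds those after correction for length and GC. TPM values lie above the deposited ones for every gene drawn, and the corrected value of KLF3 (0.42) is below its deposited value (1.15).

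The order of the levels changed little between the groups. In wild-type libraries it ran KLF5, KLF13, KLF10, KLF3, KLF4, KLF11, KLF6, KLF2, KLF9 and KLF15, and the ranges of KLF3 and KLF4 and of KLF2 and KLF9 overlapped. In knockout libraries KLF6 moved from place 7 to place 5 and KLF4 from place 5 to place 7. KLF2 and KLF9 also changed places, with KLF9 at place 8 and KLF2 at place 9. Only KLF10 and KLF3 overlapped among neighbours there. The ranges of all other neighbours were separate, with 2 libraries behind each.

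Ratios of 2 genes within a library do not depend on the scaling between libraries, but they still carry the trends with length and GC content. KLF3 to KLF4 was 1.03 and 1.18 in wild-type and 2.53 and 2.43 in knockout libraries. KLF6 to KLF4 was 0.726 and 0.921 against 1.88 and 1.76, so KLF4 was the more abundant of the pair in both wild-type libraries and KLF6 in both knockout libraries. KLF5 to KLF4 was 5.13 and 5.67 against 8.67 and 8.22, and KLF11 to KLF4 was 0.82 and 0.943 against 1.53 and 1.3. The ratio of KLF10 to KLF4 moved least, from 2.07 and 2.21 to 2.61 and 2.46. In each of these 5 ratios both knockout libraries were above both wild-type libraries, which held for the levels of 40.1% of all tested genes. All 5 share KLF4, the tested member with the smallest log2 fold change, as denominator, so they are not separate results. Ratios of the other members to KLF4 were not taken. With length and GC corrected, the log2 fold change of KLF3 exceeded that of KLF4 by 0.15 in place of 1.15, and the excess over KLF4 was 0.41 for KLF6, 0.15 for KLF5, 0.09 for KLF11 and −0.19 for KLF10. With 2 libraries a group, the smallest two-sided p of an exact permutation test is 0.333, so no p is given.

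**Figure D3:**
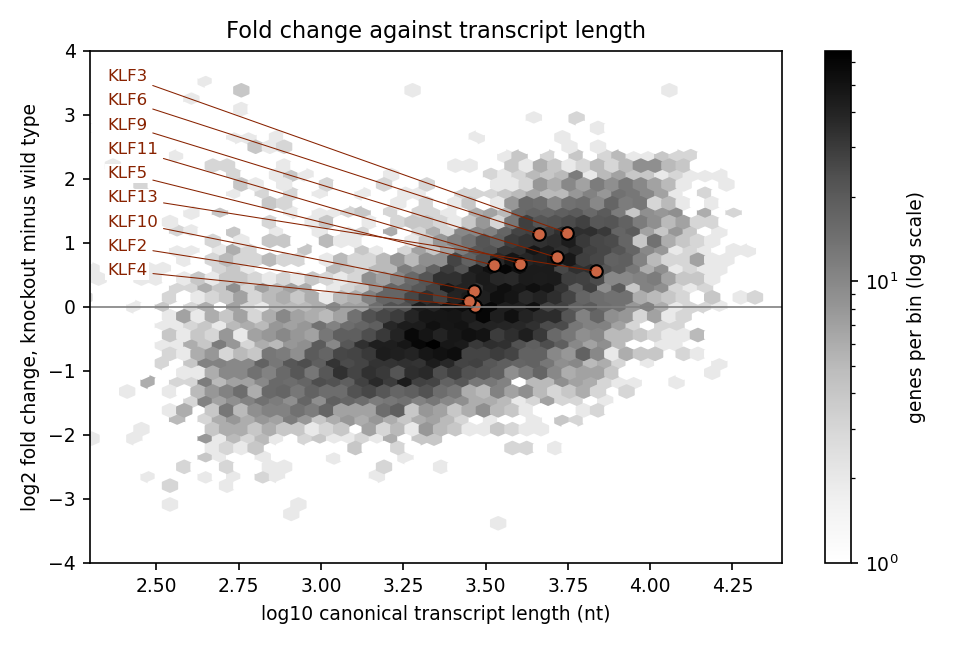
Log2 fold change (knockout minus wild type) against the log10 of canonical transcript length (nt) for tested genes within the axes; grey shading counts genes per bin on a log scale, and the 9 tested Krüppel-like factor genes are labelled orange points. Fold changes rise with length over all genes (Spearman 0.495), and the 9 points lie within the dense band.

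Among the 9 tested members the log2 fold change also went with transcript length (Spearman 0.683) and against GC content (−0.583), given as a description of 9 genes from the same 4 libraries. KLF2, KLF4 and KLF10, the 3 with the smallest fold changes, have transcripts of 2820, 2936 and 2915 nt, and the called genes KLF3 and KLF6 have 5594 and 4590 nt. KLF13 did not follow that order, with 6845 nt and a log2 fold change of 0.56. After correction, the log2 fold changes of the 9 ranged from 0.08 for KLF10 to 0.68 for KLF6. What length and GC content contribute to the differences was not tested beyond this correction.

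Of 17 other KLF and SP genes, 6 were tested, and KLF7, SP1 and SP3 were called higher, beside 14.2% of all tested genes. None was called lower, beside 15.3% of all tested genes. At an unadjusted p under 0.05 in limma, 1 of the 6, KLF16, was lower, beside 38.3% of all tested genes. Both knockout libraries were above both wild-type libraries for 5 of the 6, beside 40.1% of all tested genes. KLF7 went from 0.965 and 1.02 FPKM to 4.58 and 3.64 FPKM, a log2 fold change of 1.94 ± 0.21 (SE, limma with Benjamini-Hochberg adjusted p = 0.000917), larger than that of any of the 10 members. SP1, the archetypal GC-box activator, rose from 11.6 FPKM in both wild-type libraries to 28.4 and 29.7 FPKM, and SP3, which competes for the same boxes, went from 6.74 and 4.70 FPKM to 17.1 and 15.5 FPKM. Relative to the median gene, KLF7, SP1 and SP3 were at 2.02, 1.41 and 1.61 on the FPKM scale and at 2.03, 1.41 and 1.61 on the TPM scale. None of the 3 was called once length and GC were corrected, KLF7 at 1.07 with a limma adjusted p of 0.0107 (Benjamini-Hochberg), SP1 at 0.52 and SP3 at 0.34. KLF16, a family member that binds GC boxes, was at 15.2 and 15.6 FPKM without the knockout and at 7.88 and 7.69 FPKM with it, and its log2 fold change of −0.98 ± 0.10 (SE, limma with Benjamini-Hochberg adjusted p = 0.000764) ended just under 2-fold. It was 0.89 below the median gene on either scale but −0.14 with length and GC corrected. Within each library, KLF5 to KLF16 was 1.58 and 1.43 in wild-type and 4.47 and 4.92 in knockout libraries, and KLF13 to KLF16 was 0.773 and 0.994 against 2.59 and 2.54. The differences of the log2 fold changes behind these ratios, corrected for length and GC, were 0.56 for both in place of 1.63 and 1.54. KLF16 was thus above KLF13 in both wild-type libraries and below it in both knockout libraries. KLF1 was listed at 0 in all 4 libraries.

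All 11 genes for corepressors and coactivators that bind Krüppel-like factors were tested. Of these, 3 were called higher and 1 lower, beside 14.2% and 15.3% of all tested genes. Both knockout libraries were above both wild-type libraries for 7 of the 11 and below them for 3, beside 40.1% and 45.9% of all tested genes. The genes called higher were the 3 acetyltransferases of the list. EP300 went from 2.49 ± 0.535 to 11.6 ± 1.02 FPKM (SD, n = 2 each), CREBBP from 4.31 ± 0.18 to 12.8 ± 0.17 FPKM and KAT2B from 1.51 ± 0.0665 to 4.96 ± 0.144 FPKM. Their log2 fold changes were 2.19, 1.55 and 1.65, and with length and GC corrected they were 1.56, 1.18 and 1.08, still called. HDAC3, a histone deacetylase, fell from 61.1 and 70.6 FPKM to 30.9 and 33.4 FPKM, a log2 fold change of −1.03 (limma with Benjamini-Hochberg adjusted p = 0.000994) that was −0.35 on the TPM scale, −0.63 with length and GC corrected and −0.92 without wild-type replicate 2, and the call was lost in all 3. HDAC2, with a log2 fold change of −0.04, was called lower in place of HDAC3 when length and GC were corrected (−1.17). The partners of the repressing members gave no call on the FPKM scale, with log2 fold changes of −0.81 for CTBP1, 0.48 for CTBP2, 0.86 for SIN3A and 0.26 for SIN3B. With length and GC corrected, these 4 were at −0.21, −0.29, 0.22 and 0.44, so that CTBP2 changed its sign. On the TPM scale CTBP2 (1.16) and SIN3A (1.54) were called higher, where 4380 of all tested genes were. The list had a median of 0.26.

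The ubiquitin ligases that act on Krüppel-like factor proteins were represented by 4 genes, of which 1 was called higher, beside 14.2% of all tested genes. All 4 were higher in both knockout libraries than in both wild-type libraries, beside 40.1% of all tested genes. WWP1, which marks KLF2 and KLF5 for degradation, rose from 9.43 and 8.94 FPKM to 26.7 and 30.4 FPKM, a log2 fold change of 1.62 (limma with Benjamini-Hochberg adjusted p = 0.000512) and 0.96 with length and GC corrected, where the call was lost. VHL went from 17.8 and 13.6 FPKM to 25.9 and 29.0 FPKM, without reaching 2-fold, and was called without wild-type replicate 1 (log2 fold change 1.01). FBXW7 and SMURF1 had log2 fold changes of 0.75 and 0.50 and were not called. Protein levels were not measured in these libraries.

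Upstream of the family, 16 of 18 genes were tested. Of these, 6 were called higher and none lower, beside 14.2% and 15.3% of all tested genes. At an unadjusted p under 0.05 in limma, 8 were higher and 3 lower, beside 33.0% and 38.3% of all tested genes. Both knockout libraries were above both wild-type libraries for 12 of the 16 and below them for 3, beside 40.1% and 45.9% of all tested genes. MEF2A, which activates KLF2 and KLF4 downstream of the kinase MAPK7, rose from 4.73 and 3.62 FPKM to 20.1 and 19.3 FPKM (log2 fold change 2.22), while MAPK7 itself overlapped between the groups. The TGF-β pathway genes TGFBR2, SMAD3 and SMAD4 rose by 1.44, 1.43 and 2.14 on the log2 scale, and SMAD2, at 0.81, did not reach 2-fold except without wild-type replicate 1 (1.03). Not all genes of that pathway rose, with TGFBR1 at 0.08 (−0.82 with length and GC corrected) and SMAD7 at −0.40. The 3 genes lower in both knockout libraries were SMAD7, MAP2K5 (−0.66) and PER1 (−0.44), all under 2-fold. NR3C1, the glucocorticoid receptor gene, rose from 8.92 and 8.65 FPKM to 21.4 and 21.3 FPKM (log2 fold change 1.27), and CLOCK rose from 1.78 and 1.87 FPKM to 6.03 and 6.56 FPKM (1.73). With length and GC corrected, MEF2A, TGFBR2, SMAD3 and SMAD4 had log2 fold changes of 1.47, 1.05, 1.0 and 1.16 and were still called, while NR3C1, at 0.40, and CLOCK, at 0.58, were not. The median of the list was 0.36.

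None of 4 tested glucocorticoid receptor readouts was called, although 3 of the 4 were higher at an unadjusted p under 0.05 in limma, as were 33.0% of all tested genes. The 2 of highest level were SGK1, which went from 113 and 107 FPKM to 122 and 128 FPKM, and DUSP1, at 79.0 and 71.3 FPKM against 129 and 135 FPKM. DUSP1 had a log2 fold change of 0.81 (limma with Benjamini-Hochberg adjusted p = 0.00167), under 2-fold, and of 1.31 with length and GC corrected, where it was called. All 4 readouts were higher in both knockout libraries, beside 40.1% of all tested genes. With length and GC corrected, SGK1 was at 0.025, and the remaining readouts FKBP5 and TSC22D3 were at −0.12 and 0.72. Of the members known to answer to the same receptor, KLF9 was higher in both knockout libraries and KLF15 overlapped. The log2 fold change of KLF9 was 0.26 with length and GC corrected.

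Of 18 textbook targets of Krüppel-like factors, 11 were tested, with a median log2 fold change of −0.42 (0.25 on the TPM scale). Of the 11, 1 was called higher and 3 lower, beside 14.2% and 15.3% of all tested genes. Both knockout libraries were above both wild-type libraries for 2 of the 11 and below them for 7, beside 40.1% and 45.9% of all tested genes. PPARGC1A, a metabolic coactivator, rose from 1.52 and 1.22 FPKM to 4.85 and 5.28 FPKM (log2 fold change 1.82). With length and GC corrected it was just under 2-fold (0.995) and lost its call, while CDKN1A, a cell cycle inhibitor at 0.63, gained one (1.18). TGFB1, a target of KLF6, fell from 48.2 and 54.9 FPKM to 18.7 and 18.2 FPKM, a log2 fold change of −1.47. BCAT2, an enzyme of branched-chain amino acid breakdown and a target of KLF15, fell from 62.9 and 80.0 FPKM to 28.6 and 29.6 FPKM (−1.28). CCL5, the chemokine activated by KLF13 in T cells, fell from 5.75 and 10.8 FPKM to 1.11 and 0.945 FPKM (−2.83), while KLF13 itself was higher in both knockout libraries. With length and GC corrected, CCL5 was at −2.17 and still called, and TGFB1 and BCAT2, at −0.78 and −0.41, were not. On the TPM scale the log2 fold changes were −2.21 for CCL5, −0.80 for TGFB1 and −0.60 for BCAT2. Without either knockout library, limma called none of the genes of these lists or of any other.

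**Figure D4:**
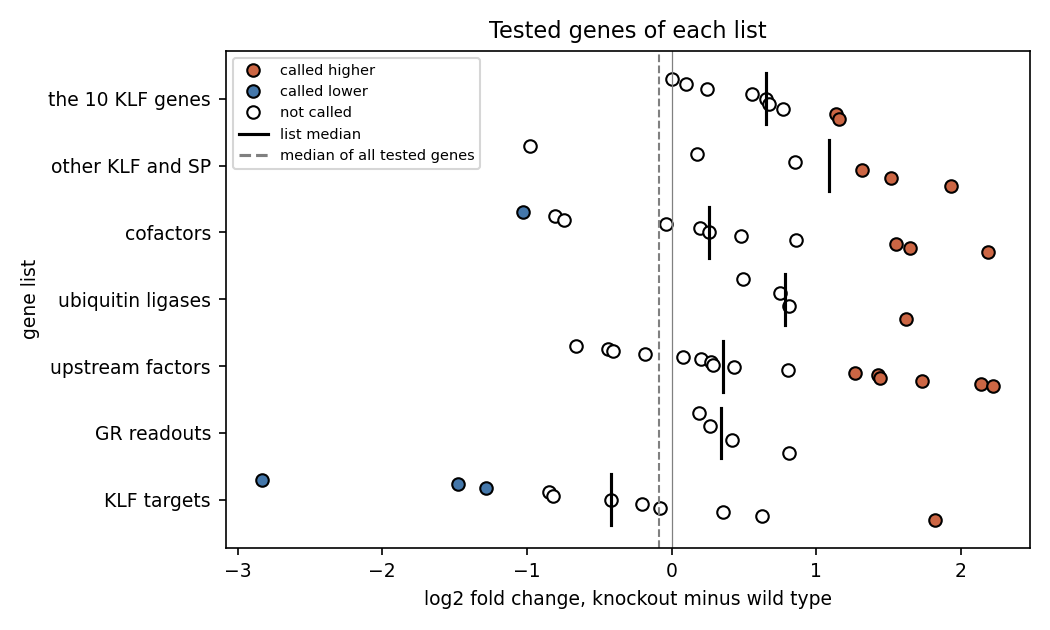
Log2 fold change (knockout minus wild type) of every tested gene of the Krüppel-like factor set and of 6 related lists; red points were called higher, blue points lower and open points not called, black bars are list medians and the dashed line is the median of all tested genes (−0.09). The median of the targets (−0.42) lies to the left of the dashed line and the medians of the other lists to the right of it.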

How the data were processed

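Polyadenylated RNA of 2 wild-type and 2 TXNDC9 knockout libraries was analysed. Per the labels and the submitters' processing notes, the authors aligned the reads with TopHat2 (genome build hg38) and ran Cuffdiff of the Cufflinks suite, and the values they deposited are FPKM. Tool versions and the library normalization are not given in the sources used here. The deposited table also holds the authors' condition means, fold changes, p-values and q-values, which were not used. It had 231916 lines, of which 57979 held values, and its identifiers were out of register with the symbols and were put back in order. After that, the identifiers of all 10 members carried the same symbol in GENCODE release 44, which gave positions, lengths and GC content. No steps worth 1 read could be found among low values, where the commonest ratio between wild-type libraries held for 2.44% of genes, so depth is unknown and no intervals from counts are given.

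The members and gene lists were chosen with earlier results of these data known. Genes with a mean of the group means above 1 FPKM (13246) entered a limma fit (version 3.58.1, R 4.3.3) of log2(FPKM + 0.1) with a variance trend and Benjamini-Hochberg adjustment over all tested genes. A call needed at least a 2-fold change and an adjusted p below 0.01, thresholds that follow the study's methods. Fold changes on this scale understate those of low genes. The genes named are the 10 members, the called genes of each list, the 2 of highest FPKM in lists with 0 or 1 call, and the 3 nearest profiles to the most abundant member. Other genes were named after their values were seen. Alternatives were pseudocounts of 1 and 0.01, no filter or a mean above 5 FPKM, TPM, centring on the median, no trend, an adjusted p under 0.05, the replicate number as a block, a loess correction (span 0.3) for transcript length and GC content, alone and with the block, and each library left out. The fit was tested on simulated data, where it recovered 93% of 200 changed genes among 13246 and made 1 false call. With a length trend but no added GC trend in the simulated data, the fit without correction, as used for the main calls, made 241 false calls. It recovered 85.9% of 198 changed genes among 13112. The fit with length and GC correction recovered 93.9% of the same 198 genes and made 2 false calls. Reads that match several family members may be split between them in a way the sources do not give. Promoter sequences came from RefSeq (GRCh38.p14). Other tools were Python 3.11.15, numpy 2.4.6, pandas 2.3.3, matplotlib 3.10.9 and scipy 1.17.1.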

Additional observations from a re-analysis of the deposited data

How the results depend on the processing

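The depth is unknown and each group has 2 libraries, so spread rests on the variance limma shares across genes. KLF10 kept its direction and stayed uncalled under all alternatives run, although with TPM it had a log2 fold change of 0.92 and an adjusted p of 0.00336 by limma. After rescaling to TPM, KLF5 (log2 fold change 1.33), KLF9 (1.43), KLF11 (1.35) and KLF13 (1.24) were called too, which made 6 members higher, KLF15 moved to 0.68 and TXNDC9 turned to 0.12. All genes then gave 4380 higher and 447 lower calls (90.7% higher, against 48.3% as deposited). The lists gave 5 cofactors higher and 0 lower, 4 ligases, 2 readouts and 2 targets higher and 1 target lower. Centring on the median (35.8% of calls higher) turned KLF2 to −0.045 and KLF4 to −0.14, took KLF6 to 0.99, left 1 member called and added 1 lower gene, among the other KLF and SP genes. A pseudocount of 1 took KLF6 to 0.97 and left 1 member called. Length and GC correction took KLF3 to 0.42 and KLF6 to 0.68 and left 0 members, 0 other KLF and SP genes and 0 ligases called, with 1 readout higher, 1 target lower, HDAC2 in place of HDAC3 and CDKN1A in place of PPARGC1A called, and 841 higher and 969 lower calls among all genes. A mean above 5 FPKM gave 1220 higher genes and 0 targets higher, with fewer genes tested.

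No pairing of the libraries by replicate number was seen, with a correlation of −0.0904 across genes between same-numbered deviations from the group means. With 2 libraries a group, this cannot tell whether same-numbered libraries were prepared together. The replicate block changed no call of a member, with adjusted p = 0.000113 for KLF3 and 0.0002 for KLF6 by limma, and gave 1960 higher and 2146 lower genes. With the block and the correction together, KLF3 was at 0.42 and KLF6 at 0.68 (adjusted p = 0.0341 and 0.0101 by limma), 0 members, 0 other KLF and SP genes and 0 ligases were called higher, 1 readout was higher and 1 target lower, and all genes gave 841 higher and 975 lower calls.

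Over the fits that left out 1 library each, KLF3 ranged from 1.09 to 1.22 on the log2 scale, KLF6 from 1.09 to 1.18, KLF2 from −0.63 to 0.83 and KLF4 from −0.12 to 0.13. Higher members ranged from 0 to 2, all higher genes from 0 to 2136 and all lower genes from 0 to 2633. Calls ranged from 0 to 3 for other KLF and SP genes higher, 0 to 3 for cofactors higher and 0 to 1 lower, 0 to 2 for ligases, 0 to 7 for upstream factors, 0 to 1 for targets higher and 0 to 3 lower. The zeros came from leaving out either knockout library and, for the lower cofactor (HDAC3), also wild-type replicate 2. Without a knockout library the smallest adjusted p of any gene by limma was 0.016 or 0.0232. Other causes were not tested.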
